A study of Homo sapiens with 3 samples.

Results

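The genes of cytosolic translation initiation and elongation were taken by name, as the symbols that begin with EIF1 to EIF6, EEF1 or EEF2. Pseudogenes, antisense genes and a Y-linked copy of EIF1A were left out. This gave 65 of the 31113 gene symbols in the files. The rule used no measured value. EIF4EBP1, EIF4EBP2 and EIF4EBP3 were kept because the end of their symbols is part of a protein's name and not a pseudogene number. EIF2B5-IT1, an intronic non-coding transcript, also matched. EEF1G was not among the matched symbols and was not analysed here.

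Initiation factors place a ribosome on the start codon of an mRNA. eIF2 carries the initiator tRNA, eIF3 binds the small ribosomal subunit, and the cap-binding protein eIF4E, the scaffold eIF4G and the helicase eIF4A recruit the mRNA. Elongation factors then bring each aminoacyl-tRNA to the ribosome (eEF1) and move the ribosome along (eEF2). Many mRNAs of elongation factors and ribosomal proteins begin with a terminal oligopyrimidine tract, a cytosine followed by a run of pyrimidines, through which mTORC1 signalling controls their translation. Phosphorylation of eIF2 by stress kinases lowers initiation in general and favours the mRNA of the transcription factor ATF4.

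The data are single-cell profiles of H9, an established human embryonic stem cell line, made with inDrop in the TruDrop version, in which droplets give each cell a barcode and each RNA molecule a unique molecular identifier (UMI). The labels give 3 libraries, collected on day 0, day 2 and day 6 of differentiation to neural progenitor cells with the STEMdiff SMADi Neural Induction Kit, from cells kept in mTeSR medium, with 1 library a day. The titles also carry a letter, which no source used here explains: A for day 0 and day 6, and B for day 2, so whatever the letter marks cannot be told apart from the day 2 label. The genotype is the same in every library, and all cells come from 1 line. After filters, 2290 cells labelled day 0, 2419 labelled day 2 and 4180 labelled day 6 remained, with median totals of 8770, 3814 and 4429 UMIs.

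The marker genes of pluripotency and of neural progenitors went, for the most part, against the day labels. POU5F1, a pluripotency factor, had levels of 2.22, 1229 and 268 CPM (UMIs of a gene per 1000000 UMIs of a library) in libraries labelled day 0, 2 and 6. PAX6, a neural progenitor factor, had 176, 6.64 and 27.9 CPM in libraries labelled day 0, 2 and 6. Summed over 10 genes each, pluripotency markers stood at 1992, 4499 and 4248 CPM and neural progenitor markers at 1028, 155 and 481 CPM in libraries labelled day 0, 2 and 6. The 2 largest parts of the pluripotency sum labelled day 0 were LIN28A and SOX2. LIN28A had 1039, 1037 and 1828 CPM and SOX2 had 600, 333 and 810 CPM in libraries labelled day 0, 2 and 6. These sums are thus no measure of how pluripotent a library is. By gene, 7 of the 10 pluripotency markers had a ratio above 1 for labelled day 2 over day 0, the exceptions being SOX2, LIN28A and SALL4, which neural progenitors can also express. All 10 neural progenitor markers had a ratio below 1 for labelled day 2 over day 0. The highest of the 3 libraries was the one labelled day 0 for 8 of them; SOX1 and OTX2 were highest in that labelled day 6. In the library labelled day 0, 1 of the 10 pluripotency markers, TDGF1, had no UMI. The 6 neuronal markers summed to 21.1, 27.7 and 115 CPM in libraries labelled day 0, 2 and 6, and 4 of them were highest in that labelled day 6. The libraries are therefore called by their labels throughout, and no ratio between them is read as a change over time. Of the kept cells, 2, 38 and 152 labelled day 0, 2 and 6 were in clusters made up mostly of another library; without them each count of factor genes past 1.5-fold or 2-fold stayed within 1.5 times of that given below. Pairs of libraries shared 38 kept barcodes (labelled day 2 and day 0), 72 (labelled day 6 and day 2) and 82 (labelled day 6 and day 0). With 1 library a label there is no replicate and no test. Each ratio has an exact 95% interval that covers counting error only.

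Terminal oligopyrimidine tracts are shown first, for factor genes whose RefSeq start has one, because translation factors are a textbook group of such mRNAs. Each line is 30 bases around a RefSeq transcript start in GRCh38.p14, 5′ to 3′ on the gene's own strand, with 15 bases before the start and 15 from it onward; capitals mark the run of C and T that opens with a C at the start.
EEF1A1: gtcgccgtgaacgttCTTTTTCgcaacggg
EEF2: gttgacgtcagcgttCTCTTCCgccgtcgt
EEF1B2: ccggtctcttcgggtCCTTTTTCCTCTCTT
EIF4B: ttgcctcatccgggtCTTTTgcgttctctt
EIF2S3: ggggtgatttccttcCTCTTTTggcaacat
EIF3F: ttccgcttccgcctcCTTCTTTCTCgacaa
EIF4A2: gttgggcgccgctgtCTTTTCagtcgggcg
EIF3K: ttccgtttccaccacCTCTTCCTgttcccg
EIF3B: ccccgtcgcacgcacatggctgggctgtag
These windows are chr6:73521018-73521047 (minus strand) for EEF1A1, chr19:3985449-3985478 (minus) for EEF2, chr2:206159880-206159909 (plus) for EEF1B2, chr12:53006441-53006470 (plus) for EIF4B and chrX:24054941-24054970 (plus) for EIF2S3. The others are chr11:7987322-7987351 (plus) for EIF3F, chr3:186783562-186783591 (plus) for EIF4A2, chr19:38619173-38619202 (plus) for EIF3K and chr7:2354812-2354841 (plus) for EIF3B. EIF3B, whose window has no such run, is shown for contrast because it had one of the highest ratios given below. EEF1B2 has another RefSeq start without a tract.

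A run of C followed by at least 4 pyrimidines stood at a RefSeq start of 12 of the 50 factor genes with a promoter sequence (24%). Among all symbols with a promoter sequence it was 1404 of 27305 (5.14%), and among those of at least 10 CPM in a library 644 of 8050 (8%). Only the gene's own strand and only the annotated start were searched. Besides the 8 genes with a tract printed above, the 12 were EIF2A, EIF2D, EIF3D and EIF3M. A tract at an annotated start describes the sequence and does not show where the transcripts of these cells began.

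Summed over the 65 genes, the factors made up 15302 CPM labelled day 0, 19799 CPM labelled day 2 and 16382 CPM labelled day 6, or 1.53%, 1.98% and 1.64% of the UMIs of those libraries. Ribosomal protein genes took 16.5%, 16.4% and 14.5% of the UMIs in libraries labelled day 0, 2 and 6. Thus the factors were highest as a sum in the library labelled day 2, while ribosomal protein genes were about level between the libraries labelled day 2 and day 0. Of the 65 genes, 57 reached 10 CPM in at least 1 library and all had a UMI in every library. The 8 under that level were EEF1A2, EEF1D, EEF2K, EIF2B5-IT1, EIF2S3L, EIF3L, EIF4E1B and EIF5A2; EIF2B5-IT1 had no more than 2, 4 and 7 UMIs in libraries labelled day 0, 2 and 6. Among the 57, the library labelled day 2 held the highest level of 36 genes (63.2%), the one labelled day 6 of 14 (24.6%) and the one labelled day 0 of 7 (12.3%). Over all 10574 genes that reached 10 CPM in some library, 29.2%, 39.0% and 31.9% were highest in those labelled day 2, day 6 and day 0.

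Between the libraries labelled day 2 and day 0, the factor genes were mostly higher in that labelled day 2 and by small steps. The ratio was above 1 for 46 of the 56 genes measured at 10 CPM in at least 1 of the pair, against 50.3% of all genes. By size, 14 genes reached 1.5-fold (20.1% of all genes), 3 of them reached 2-fold (10.1%), and 1 gene stood at 0.5 times or less (10.2%). The median log2 ratio was 0.36 against 0.01 for all genes. At least 2-fold higher were EIF3B, EIF5A and EEF2KMT, and at most 0.5 times was EEF1AKMT1. EIF2B3 was the only other gene at least 1.5-fold lower, as 20.8% of all genes were. EEF2KMT reached the 10 CPM minimum through the library labelled day 2 alone.

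Between the libraries labelled day 6 and day 2 the order turned round. The ratio was below 1 for 41 of 57 genes, against 41.3% of all genes, and the median log2 ratio was -0.19 against 0.12. No factor gene was at least 2-fold higher, where 8.3% of all genes were. EIF2AK4, EIF4EBP1 and EIF5AL1 were at most 0.5 times (3 genes; 6.32% of all genes), and 9 genes were at least 1.5-fold lower (13.4%). EIF4G3 alone was at least 1.5-fold higher, against 20.6% of all genes. The library labelled day 2 enters this ratio and the previous one, so their opposite signs share its values.

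For labelled day 6 over day 0, the comparison gave 36 of 56 ratios above 1, near the 56.9% of all genes, with a median log2 ratio of 0.18 against 0.11. EIF3B was at least 2-fold higher (1 gene; 9.94% of all genes) and none was at most 0.5 times (6.09%). In all, 10 genes reached 1.5-fold (22.2%), and 5 genes were lower by 1.5-fold or more (14.5%).

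**Figure D1:**
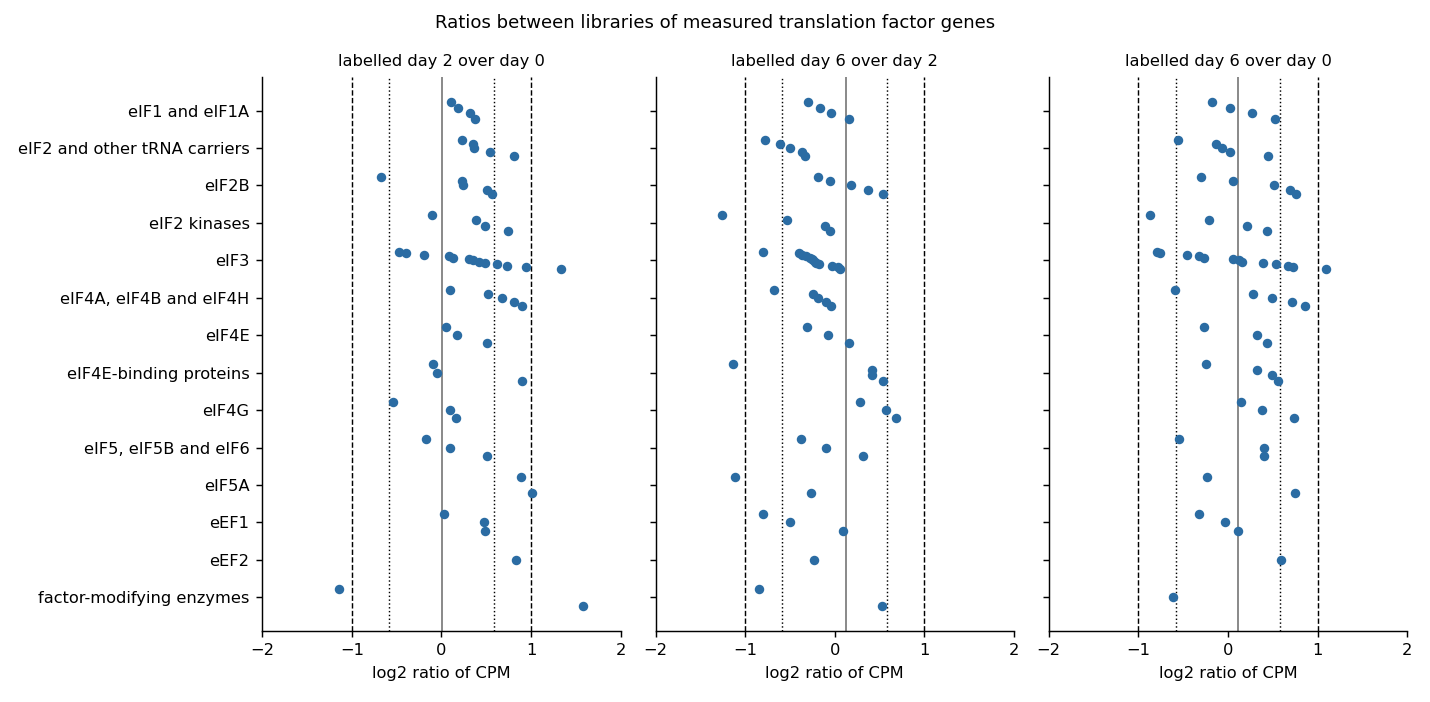
Log2 ratios of CPM of factor genes measured at 10 CPM or more in at least 1 of the 2 libraries compared, 1 point a gene, by group (rows) and comparison (panels). The grey line is the median of all genes, dotted lines mark 1.5-fold and dashed lines 2-fold. Most points lie right of the grey line in the left panel and left of it in the middle panel. Counted around a ratio of 1 and not the grey line, 46 of 56 were above in the left panel. In the middle panel 41 of 57 were below a ratio of 1.

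The libraries differed in their share of cells low in mitochondrial UMIs, and such cells had more factor UMIs for their depth. Ratios within each class of cells are given beside those over all cells for the medians and for some of the genes below. Cells with under 5% mitochondrial UMIs were 20.2%, 49.0% and 39.4% of kept cells labelled day 0, 2 and 6, and carried 6.46%, 24.97% and 14.0% of the UMIs. In such cells the factors summed to 22702, 27116 and 22919 CPM in libraries labelled day 0, 2 and 6, against 14791, 17364 and 15315 CPM in cells of 5% to 25%. The sum was highest in the library labelled day 2 in either class. Within cells under 5%, the median log2 ratio of the factors was 0.17 between the libraries labelled day 2 and day 0, and within cells of 5% to 25% it was 0.26. Both lie under the 0.36 of all cells. The medians of all genes in these classes were -0.03 and -0.01. Between the libraries labelled day 6 and day 2, the median was -0.11 within cells under 5% and -0.06 within cells of 5% to 25%, against 0.17 and 0.12 for all genes. Between those labelled day 6 and day 0 the median of the factors was -0.01 within cells under 5% and 0.23 within cells of 5% to 25%. For all genes it was 0.11 and 0.10. Because UMIs were summed over cells, a difference in level within cells and a difference in the makeup of cells cannot be told apart.

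Carriers of the initiator tRNA act first in initiation. The genes of eIF2 and the alternative carriers eIF2A and eIF2D summed to 700.1, 986 and 681 CPM in libraries labelled day 0, 2 and 6. EIF2S3, the gamma subunit that binds the tRNA, had 256, 449.5 and 349 CPM in those labelled day 0, 2 and 6. It was highest in the library labelled day 2, 1.75-fold the level labelled day 0 (95% interval 1.70 to 1.81). EIF2S2, the beta subunit, had 335, 391 and 228 CPM in libraries labelled day 0, 2 and 6. Its level labelled day 6 was the lowest of the 3, at 0.583 times that labelled day 2 (0.566 to 0.601). EIF2S1, the alpha subunit that stress kinases phosphorylate, had 49.3, 63.5 and 45.0 CPM in libraries labelled day 0, 2 and 6. The 3 subunits of eIF2 thus had unlike ratios between the libraries labelled day 6 and day 0, from 0.681 for EIF2S2 to 1.36 for EIF2S3.

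The exchange factor eIF2B reloads eIF2 with GTP. Its 5 subunit genes summed to 128, 147 and 166 CPM in libraries labelled day 0, 2 and 6. EIF2B1 had 28.7, 33.5 and 48.5 CPM in libraries labelled day 0, 2 and 6. It was highest in the library labelled day 6, at 1.69 times the level labelled day 0 (1.56 to 1.84). EIF2B3 had 28.5, 17.9 and 23.1 CPM in libraries labelled day 0, 2 and 6, and was the subunit that was lower in the library labelled day 2, at 0.628 times day 0 (0.553 to 0.711). The other 4 subunits had ratios of 1.17 to 1.48 between these libraries.

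The 4 kinases that phosphorylate eIF2 are EIF2AK1 (HRI, activated by lack of heme), EIF2AK2 (PKR, by double-stranded RNA), EIF2AK3 (PERK, by unfolded protein in the endoplasmic reticulum) and EIF2AK4 (GCN2, by lack of amino acids). EIF2AK4 (chr15:39934146-40035591, plus strand) had 104.7, 137 and 57.2 CPM in libraries labelled day 0, 2 and 6. The library labelled day 6 was the lowest, at 0.418 times day 2 (0.396 to 0.442) and 0.546 times day 0 (0.517 to 0.577). In cells under 5% mitochondrial UMIs the ratio of labelled day 6 to day 2 was 0.49, and in cells of 5% to 25% it was 0.41. At a fixed depth of 1000 UMIs a cell, 9.52%, 11.2% and 4.98% of cells labelled day 0, 2 and 6 had an EIF2AK4 UMI, and without thinning 54.4%, 43.7% and 31.0%. MYH6, a heart gene taken as background, was found in 0.262%, 0.0827% and 0.167% of cells thinned in the same way in libraries labelled day 0, 2 and 6. EIF2AK3 had 13.6, 22.7 and 15.7 CPM in libraries labelled day 0, 2 and 6, a ratio of 1.67 (1.46 to 1.92) for labelled day 2 over day 0. It was 1.74 in cells under 5% mitochondrial UMIs (0.871 to 3.86) and 1.92 in cells of 5% to 25% (1.67 to 2.21), but just under 1 in cells of at most 10%, at a log2 ratio of -0.019. EIF2AK1 had 60.8, 85.3 and 82.1 CPM and EIF2AK2 had 77.9, 72.4 and 67.0 CPM in libraries labelled day 0, 2 and 6. Among the UMIs of the 4 kinases, EIF2AK4 held 40.7%, 43.1% and 25.8% and EIF2AK1 held 23.7%, 26.9% and 37.0% in libraries labelled day 0, 2 and 6. EIF2AK4 was the most counted kinase in those labelled day 0 and day 2, and EIF2AK1 in that labelled day 6.

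EIF1 and EIF1AX help the scanning ribosome choose the start codon. EIF1 had 515, 639.7 and 621 CPM in libraries labelled day 0, 2 and 6, and its paralogue EIF1B made up 16.2%, 15.04% and 14.0% of the UMIs of the pair. Levels of this group were near one another, and its ratios stayed under 1.5-fold in each comparison.

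**Figure D2:**
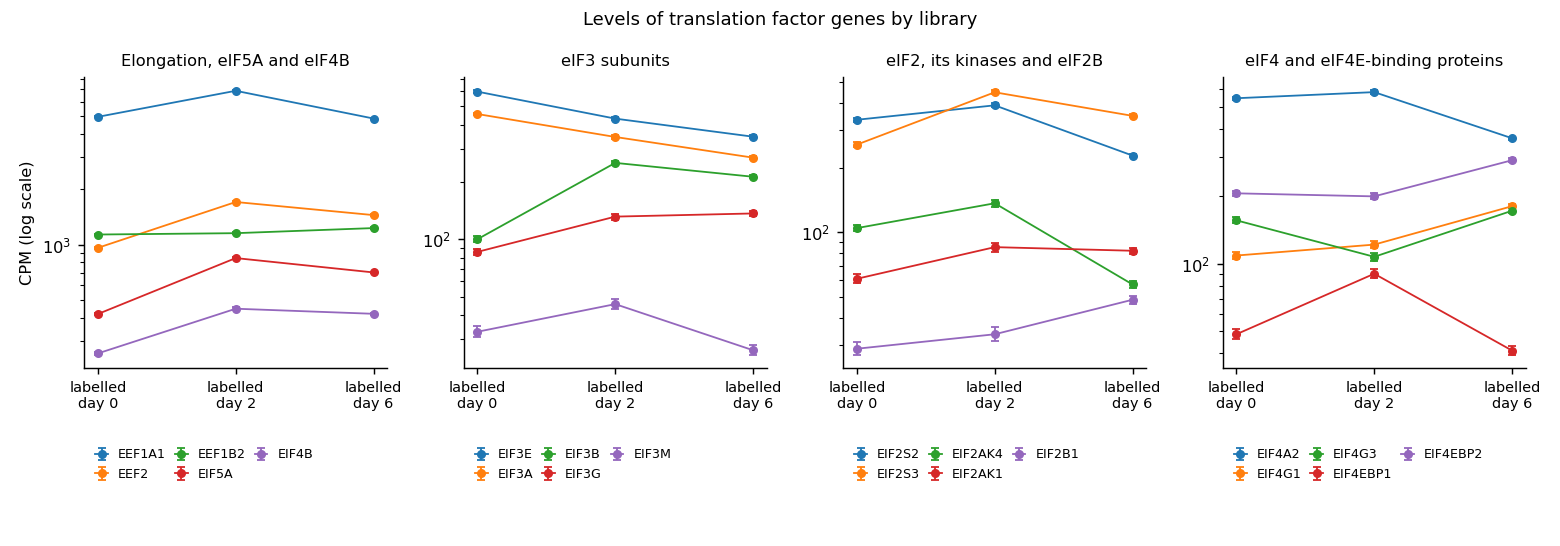
Levels of 20 factor genes in CPM (log scale) in libraries labelled day 0, 2 and 6, in 4 panels by role. Error bars are exact Poisson 95% intervals for counting error, and lines only join the points of a gene; EEF2 and EIF3B stand lowest in the library labelled day 0, EIF2AK4 and EIF3E lowest in that labelled day 6.

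eIF3 is a complex of many subunits, and its genes differed in their order of libraries. They summed to 2862, 3195 and 2737 CPM in libraries labelled day 0, 2 and 6. EIF3B, a core subunit (chr7:2354086-2380745 in GRCh38, plus strand), had 100.1, 252 and 213 CPM in libraries labelled day 0, 2 and 6. It was lowest in the library labelled day 0: the level labelled day 2 was 2.52 times as high (2.41 to 2.64) and that labelled day 6 was 2.13 times as high (2.04 to 2.22). Within cells under 5% mitochondrial UMIs these ratios were 2.04 and 1.65, and within cells of 5% to 25% they were 2.43 and 2.15. Thinned to 1000 UMIs, 10%, 23.8% and 19.4% of cells labelled day 0, 2 and 6 had an EIF3B UMI, and without thinning 56.8%, 63.7% and 60.5%.

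EIF3A and EIF3E differed from EIF3B in the place of the library labelled day 0. EIF3A, the largest core subunit, had 456, 345 and 269 CPM in libraries labelled day 0, 2 and 6. EIF3E had 598, 431 and 346 CPM in libraries labelled day 0, 2 and 6. Both were highest in the library labelled day 0. For labelled day 6 over day 0 the ratio was 0.590 for EIF3A (0.575 to 0.605) and 0.579 for EIF3E (0.567 to 0.592). The EIF3E ratio was 0.53 in cells under 5% mitochondrial UMIs and 0.56 in cells of 5% to 25%, while that of EIF3A was 0.83 and 0.57. EIF3M, a subunit of the outer part of the complex, had 32.6, 45.6 and 26.1 CPM in libraries labelled day 0, 2 and 6, at 0.572 times (0.524 to 0.625) for labelled day 6 over day 2. EIF3C and its near-identical copy EIF3CL had ratios of 1.66 and 1.93 for labelled day 2 over day 0, and reads of one may have been counted for the other, so the split is uncertain. EIF3L stayed under 5 CPM in every library, with 4.76, 3.78 and 4.97 CPM in those labelled day 0, 2 and 6. In GENCODE 29, 41.1% of its exonic bases lie in another gene on the same strand; the part of this in its count was not tested.

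The helicase group of eIF4A, eIF4B and eIF4H unwinds the leader of the mRNA. It summed to 1070, 1469 and 1177 CPM in libraries labelled day 0, 2 and 6. EIF4B, which stimulates the helicase, had 255, 447 and 419.5 CPM in libraries labelled day 0, 2 and 6. It was lowest in the library labelled day 0, with 1.75-fold the level in labelled day 2 (1.70 to 1.81) and 1.64-fold in labelled day 6 (1.60 to 1.69). EIF4A3, the related helicase of the exon junction complex, had 52.4, 97.5 and 94.96 CPM in libraries labelled day 0, 2 and 6, with the same order of libraries. EIF4A2 had 548, 583 and 363 CPM in libraries labelled day 0, 2 and 6, and was lowest in the library labelled day 6, at 0.623 times day 2 (0.608 to 0.638). EIF4A1, the main cap-complex helicase of most cells, had no more than 10.2, 14.5 and 12.3 CPM in libraries labelled day 0, 2 and 6, or 1.82%, 2.43% and 3.27% of the UMIs of the EIF4A group. In GENCODE 29, 43.4% of its exonic bases lie in another gene on the same strand, the read-through gene SENP3-EIF4A1 among them; the part of this in its count was not tested.

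The inhibitors of the cap-binding protein differed between libraries in the shares of their paralogues. EIF4EBP1, which holds eIF4E back until mTORC1 phosphorylates it, had 48.6, 90.4 and 41.1 CPM in libraries labelled day 0, 2 and 6. The library labelled day 2 was the highest, 1.86-fold the level labelled day 0 (1.74 to 2.00), and that labelled day 6 was 0.454 times day 2 (0.425 to 0.486). EIF4EBP2 had 206, 199.99 and 289.9 CPM in libraries labelled day 0, 2 and 6, and was highest in that labelled day 6, at 1.45 times day 2 (1.40 to 1.502). EIF4EBP1 thus held 18.5%, 30.3% and 12.01% of the UMIs of the 3 EIF4EBP genes, and EIF4EBP2 78.7%, 67.0% and 84.8%, in libraries labelled day 0, 2 and 6. The EIF4EBP1 ratio for labelled day 6 over day 2 was 0.45 in cells under 5% mitochondrial UMIs and 0.48 in cells of 5% to 25%. EIF4EBP3 held 2.84%, 2.76% and 3.21% of those UMIs, and 73.4% of its exonic bases are shared with other genes on the same strand, among them ANKHD1-EIF4EBP3.

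EIF4E itself had 135, 140.0 and 113 CPM in libraries labelled day 0, 2 and 6, and EIF4E2, a cap-binding relative that can repress translation, had 85.1, 95.8 and 107 CPM. EIF4E was 58.6%, 55.8% and 48.2% of the UMIs of EIF4E, EIF4E2 and EIF4E3 in those labelled day 0, 2 and 6. The scaffolds summed to 673, 663 and 881 CPM in libraries labelled day 0, 2 and 6, and were highest in the library labelled day 6, as were the sums of eIF2B and of the eIF4E-binding proteins. EIF4G1 had 109, 122 and 181 CPM in libraries labelled day 0, 2 and 6. Its level labelled day 6 was 1.48 times day 2 (1.42 to 1.55) and 1.66 times day 0 (1.59 to 1.73). EIF4G3 had 156, 108 and 173 CPM in libraries labelled day 0, 2 and 6, and was lowest in that labelled day 2. EIF4G2, a relative that lacks the eIF4E site, had 407, 434 and 528 CPM in libraries labelled day 0, 2 and 6, and held 60.6%, 65.4% and 59.9% of the UMIs of the 3 scaffold genes.

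**Figure D3:**
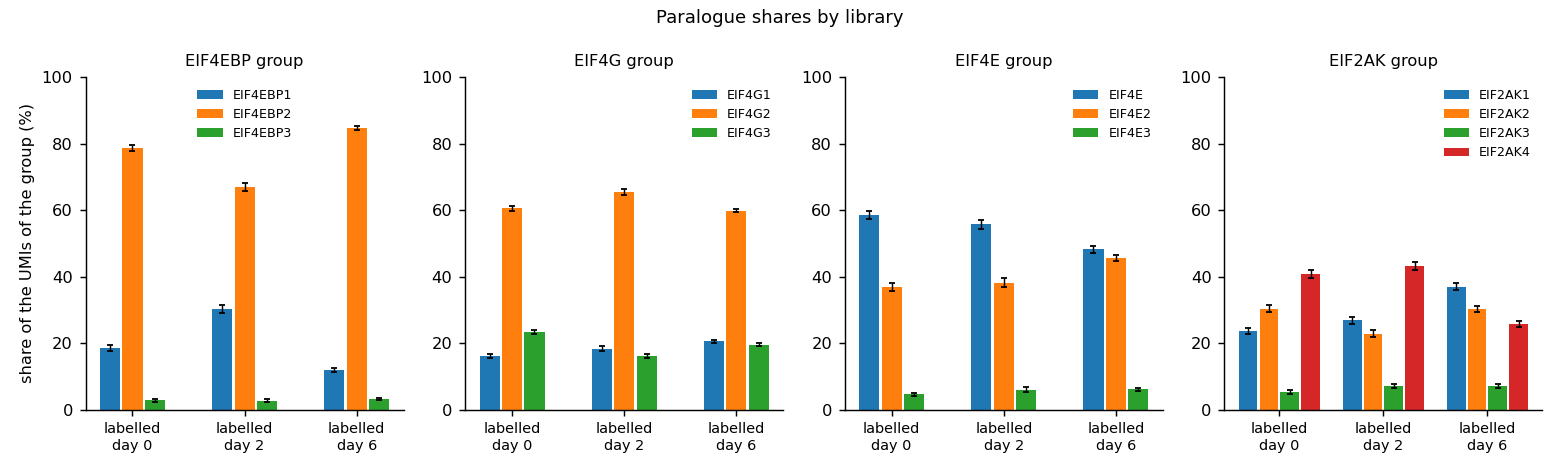
Share of each paralogue (%) among the UMIs of its group in libraries labelled day 0, 2 and 6, for the eIF4E-binding proteins, the eIF4G scaffolds, the cap-binding proteins and the eIF2 kinases. Bars are shares of summed UMIs and error bars exact binomial 95% intervals; EIF4EBP1 is 30.3% in the library labelled day 2 against 12.01% in that labelled day 6, and EIF2AK4 is 25.8% in that labelled day 6.

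The factors that act as the subunits join differed in order. EIF5, which makes eIF2 cleave its GTP, had 223, 238 and 295 CPM in libraries labelled day 0, 2 and 6. EIF5B, the GTPase of subunit joining, had 253, 225 and 173 CPM in libraries labelled day 0, 2 and 6. EIF5 was thus highest, and EIF5B lowest, in the library labelled day 6, with ratios to day 0 of 1.32 (1.28 to 1.36) and 0.684 (0.662 to 0.707). These ratios differed by class of cells. In cells under 5% mitochondrial UMIs they were 1.80 (1.61 to 2.01) for EIF5 and 0.878 (0.780 to 0.990) for EIF5B. In cells of 5% to 25% they were 1.27 and 0.670. EIF6, which keeps the large subunit free, had 55.3, 78.5 and 73.2 CPM in libraries labelled day 0, 2 and 6.

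EIF5A (chr17:7306999-7312463, plus strand), the factor that carries the amino acid hypusine and helps the ribosome past stalling sequences, had 418, 844 and 705 CPM in libraries labelled day 0, 2 and 6. It was lowest in the library labelled day 0; that labelled day 2 was 2.02 times as high (1.97 to 2.06) and that labelled day 6 was 1.68 times as high (1.65 to 1.72). The ratio for labelled day 2 over day 0 was 1.99 in cells under 5% mitochondrial UMIs and 1.82 in cells of 5% to 25%. With cells thinned to 1000 UMIs, 34.6%, 58.8% and 51.3% of cells labelled day 0, 2 and 6 had an EIF5A UMI, and without thinning 85.3%, 89.3% and 86.8%. EIF5AL1 (chr10:79512601-79516440, plus strand), a processed copy of EIF5A, had 47.9, 88.5 and 40.9 CPM in libraries labelled day 0, 2 and 6. Its reads can belong to EIF5A, and its ratio of 0.462 for labelled day 6 over day 2 (0.432 to 0.494) stood apart from the 0.835 of EIF5A (0.820 to 0.851). EIF5A2, the tissue-restricted paralogue, was 1.39%, 0.668% and 0.523% of the UMIs of EIF5A and EIF5A2 in those labelled day 0, 2 and 6.

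The eEF1 genes took more UMIs than any initiation group. They summed to 6190, 8163 and 6163 CPM in libraries labelled day 0, 2 and 6. EEF1A1 (chr6:73515750-73523797, minus strand), which delivers aminoacyl-tRNA, had 4956, 6871 and 4851 CPM in libraries labelled day 0, 2 and 6. It was highest in that labelled day 2, at 1.39 times day 0 (1.38 to 1.40), while the library labelled day 6 was 0.979 times day 0 (0.972 to 0.986). In cells under 5% mitochondrial UMIs its ratio for labelled day 2 over day 0 was 1.26, and in cells of 5% to 25% it was 1.23. Thinned to 1000 UMIs, the median cell had 5, 8 and 6 EEF1A1 UMIs in libraries labelled day 0, 2 and 6.

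EEF1B2, an exchange factor of eEF1A, had 1134, 1153 and 1229 CPM in libraries labelled day 0, 2 and 6, and so was within 1.08-fold in all of them. EEF1E1, a scaffold of the synthetase complex named for its likeness to elongation factors, had 91.5, 128 and 73.3 CPM in libraries labelled day 0, 2 and 6, at 0.574 times (0.545 to 0.605) for labelled day 6 over day 2. EEF1D, another exchange subunit, had 7.66, 4.22 and 6.83 CPM in libraries labelled day 0, 2 and 6 and did not reach the minimum. EEF1A2, the form of muscle and neurons, had 11, 142 and 73 UMIs in libraries labelled day 0, 2 and 6, or 0.388, 6.88 and 1.77 CPM. Its level labelled day 2 was 17.7 times that labelled day 0 (9.62 to 36.3), but in every library it stayed under 10 CPM and at or under 0.100% of the UMIs of EEF1A1 and EEF1A2. At 1000 UMIs a cell, 0.0437%, 0.413% and 0.191% of cells labelled day 0, 2 and 6 had an EEF1A2 UMI, and without thinning 0.393%, 5.42% and 1.65%. The thinned share was under that of MYH6 in the library labelled day 0, near it in that labelled day 6 and above it in that labelled day 2.

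EEF2 (chr19:3976056-3985469, minus strand), the translocase of elongation, had 959, 1704 and 1446 CPM in libraries labelled day 0, 2 and 6. It was lowest in the library labelled day 0, with 1.78-fold the level in labelled day 2 (1.75 to 1.80) and 1.51-fold in labelled day 6 (1.49 to 1.53). Within the mitochondrial share classes its ratio for labelled day 2 over day 0 was 1.54 in cells under 5% and 1.51 in cells of 5% to 25%. Thinned, 64.5%, 84.0% and 80.5% of cells labelled day 0, 2 and 6 had an EEF2 UMI, and without thinning 97.0%, 97.6% and 97.9%. The kinase that inhibits it, EEF2K, had 9.81, 9.65 and 9.01 CPM in libraries labelled day 0, 2 and 6. Among the enzymes that modify elongation factors, EEF1AKMT1, a lysine methyltransferase of eEF1A, had 25.2, 11.4 and 16.5 CPM in libraries labelled day 0, 2 and 6. It was lowest in the library labelled day 2, at 0.452 times day 0 (0.389 to 0.525). EEF2KMT, a methyltransferase of eEF2, had 3.39, 10.1 and 5.65 CPM in libraries labelled day 0, 2 and 6, at 2.99 times (2.34 to 3.85) for labelled day 2 over day 0.

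Against the sequences shown above, the 12 genes with a pyrimidine tract at a RefSeq start had ratios above 1 in 12 of 12 cases for labelled day 2 over day 0. The same held for 27 of the 34 measured factor genes with a promoter sequence and no tract, and for 50.3% of all genes. The median log2 ratio was 0.44 with a tract and 0.28 without. For labelled day 6 over day 2 the medians were -0.29 and -0.10, and for labelled day 6 over day 0 they were 0.12 and 0.33. EIF3B, with the highest ratio among genes measured in both libraries labelled day 2 and day 0 at 10 CPM or more, is without a tract, and EEF1B2, with a tract, had a ratio of 1.02. A textbook list of genes with such tracts held 7 measured factor genes: EEF1A1, EEF1B2, EEF2, EIF3E, EIF3F, EIF3H and EIF4B. For labelled day 2 over day 0, 6 of these 7 had a ratio above 1, with a median log2 ratio of 0.30. EIF3E, at 0.721, was the exception. Of the other 49 measured factor genes, 40 had a ratio above 1, with a median of 0.37. By this list the median was thus not higher with a tract. These medians are a description of small groups of genes and were not tested.

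Within each library, the factor genes were higher in cells of low mitochondrial share. Cells under 5% had median totals of 2768, 3170 and 2479.5 UMIs in libraries labelled day 0, 2 and 6, against 11763, 5904 and 8794.5 UMIs in cells of 5% to 25%. Under 5%, 47 of 55, 48 of 57 and 50 of 56 measured factor genes labelled day 0, 2 and 6 had a higher CPM than in cells of 5% to 25%, against 54.9%, 55.2% and 56.5% of all genes. The number at least 1.5-fold higher was 28, 21 and 19 in those libraries, against 16.3%, 15.6% and 10.4% of all genes. Ribosomal protein genes took 21.1%, 20.2% and 17.9% of UMIs in cells under 5% of libraries labelled day 0, 2 and 6, against 16.2%, 15.1% and 14.0% in cells of 5% to 25%.

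EEF2 had 1763, 2714 and 2287 CPM in cells under 5% labelled day 0, 2 and 6, against 904, 1368 and 1309 CPM in cells of 5% to 25%. EEF1A1 had 7957, 9990 and 7261 CPM in cells under 5% labelled day 0, 2 and 6, against 4749, 5834 and 4458 CPM in the other cells. A few genes went the other way in all 3 libraries. EIF4G3 had 85.3, 50.1 and 97.0 CPM in cells under 5% labelled day 0, 2 and 6, against 161, 127 and 185 CPM in cells of 5% to 25%. EIF4A1 had 4.37, 2.33 and 2.42 CPM in cells under 5% labelled day 0, 2 and 6, against 10.6, 18.6 and 13.9 CPM. EIF2AK3 had 5.47, 9.51 and 6.73 CPM in cells under 5% labelled day 0, 2 and 6, against 14.1, 27.1 and 17.2 CPM. MALAT1, a nuclear RNA, was also lower in cells under 5%, at 1754, 406 and 562 CPM in libraries labelled day 0, 2 and 6, against 4280, 930.3 and 651 CPM; its part in these differences was not tested.

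**Figure D4:**
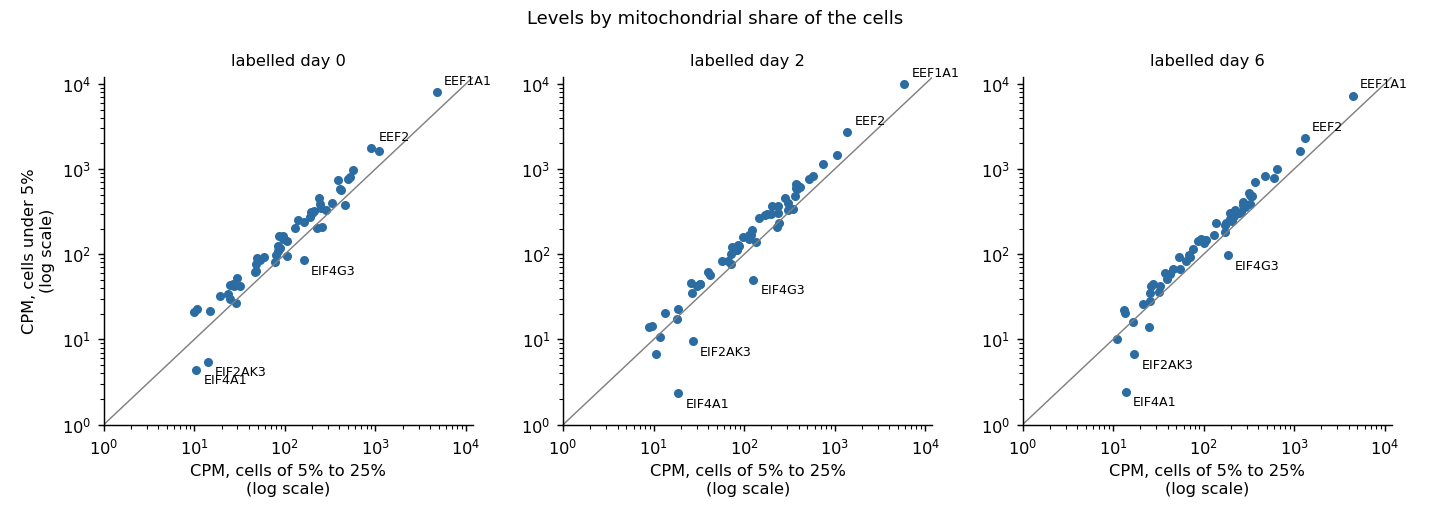
Level of each factor gene of at least 10 CPM in 1 of the classes, in cells under 5% mitochondrial UMIs (vertical axis, CPM, log scale) against cells of 5% to 25% (horizontal axis, CPM, log scale), 1 panel a library. The line marks equal levels; most points lie above it, while EIF4G3, EIF4A1 and EIF2AK3 lie below it in each panel.

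Per cell, thinned to 1000 UMIs, the 65 genes together gave a median of 16, 23 and 19 UMIs in libraries labelled day 0, 2 and 6. The 10th and 90th percentiles were 10 and 24 labelled day 0, 14 and 32 labelled day 2, and 11 and 28 labelled day 6. Cells of the 3 libraries thus overlapped widely in their factor content, with the library labelled day 2 shifted upward.

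Other genes of the translation pathway gave the surroundings of these factors. Of the targets of the integrated stress response, the pathway that runs from the eIF2 kinases to ATF4, 8 were in the files. For labelled day 2 over day 0, 4 of the 7 measured were at least 2-fold higher, against 10.1% of all genes, and for labelled day 6 over day 2, 4 of 7 were at most 0.5 times, against 6.32%. CHAC1 and DDIT3, which are among the 4 in each comparison, reached the 10 CPM minimum only through the library labelled day 2. Of the 5 targets at 10 CPM or more in both libraries, 2 were at least 2-fold higher for labelled day 2 over day 0 and 2 were at most 0.5 times for labelled day 6 over day 2. ATF4 had 157, 341 and 175 CPM in libraries labelled day 0, 2 and 6. ASNS, the asparagine synthetase, had 48.1, 184 and 52.0 CPM in libraries labelled day 0, 2 and 6. CHAC1, which degrades glutathione, had 3.25, 72.5 and 5.02 CPM in libraries labelled day 0, 2 and 6. Each was highest in the library labelled day 2, with ratios to day 0 of 2.18 for ATF4 (2.10 to 2.26), 3.82 for ASNS (3.59 to 4.06) and 22.3 for CHAC1 (18.1 to 27.9). Counts at least 2-fold higher were 3 of 6 in cells under 5% mitochondrial UMIs and 4 of 7 in cells of 5% to 25%. These counts, and the medians that follow, include CHAC1 in either class and DDIT3 in cells of 5% to 25%. In those classes both genes reached 10 CPM only through the library labelled day 2. The shares of all genes within these classes are not given here. The median log2 ratio of the measured targets was 0.63 and 1.05 in the 2 classes, against -0.03 and -0.01 for all genes. EIF4EBP1, itself known as a target of ATF4, was highest in the library labelled day 2, as were 36 of the 57 factor genes that reached 10 CPM. Whether its level is linked to ATF4 was not tested. Among the kinases, EIF2AK2 had a ratio of 0.929 for labelled day 2 over day 0 (0.869 to 0.993).

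Aminoacyl-tRNA synthetases, which load the tRNAs that eEF1A delivers, were above 1 in 19 of 20 cases for labelled day 2 over day 0, against 50.3% of all genes, with 13 at least 1.5-fold higher, against 20.1%, and a median log2 ratio of 0.68. At least 1.5-fold higher were 4 of 20 in cells under 5% mitochondrial UMIs and 11 in cells of 5% to 25%. The 4 of 20 is near the 20.1% of all genes over all kept cells, and the shares of all genes within the classes are not given here. The median log2 ratio of the synthetases was 0.46 in cells under 5% and 0.60 in cells of 5% to 25%. For all genes these medians were -0.03 and -0.01. TARS, the threonyl-tRNA synthetase, had 46.1, 228 and 170.0 CPM in libraries labelled day 0, 2 and 6, the one synthetase at least 2-fold higher in that labelled day 2 (ratio 4.96, 4.66 to 5.27). For labelled day 6 over day 2, 7 of 20 synthetases were lower by 1.5-fold or more, against 13.4% of all genes, and the median log2 ratio was -0.45. Over all kept cells, none of the factors of mitochondrial translation and of the enzymes of hypusine or diphthamide synthesis, the modifications of eIF5A and eEF2, that reached 10 CPM in 1 of the pair passed 2-fold in any comparison. Under that level, DPH1, an enzyme of diphthamide synthesis, had 1.94, 1.02 and 0.848 CPM in libraries labelled day 0, 2 and 6. In cells under 5% mitochondrial UMIs, 1 of 8 mitochondrial factors and 1 of 7 of these enzymes were at least 2-fold higher for labelled day 2 over day 0. For labelled day 6 over day 0 the counts were 1 of 7 and 1 of 6. For labelled day 6 over day 2, 0 of 7 mitochondrial factors and 1 of 7 enzymes were at most 0.5 times. Over all kept cells, the shares of all genes past these folds in these comparisons were 10.1%, 9.94% and 6.32%. PABPC1, the main poly(A)-binding protein, had 1493, 1577 and 1572 CPM in libraries labelled day 0, 2 and 6. Of 14 accessory genes of the cap and poly(A) tail, 1 was at least 2-fold higher for labelled day 6 over day 2, against 8.3% of all genes. It was CTIF, a scaffold of the nuclear cap complex, at 4.11-fold (3.51 to 4.84). CTIF reached 10 CPM there through the library labelled day 6 alone. For labelled day 2 over day 0, 1 of the 14 was at least 2-fold higher (10.1% of all genes) and 1 at most 0.5 times (10.2%). They were PAIP2B, at 2.23 times (1.96 to 2.54), and PDCD4, an inhibitor of eIF4A, at 0.444 times (0.3999 to 0.493). Among the 4 termination and recycling factors, 1 was at most 0.5 times for labelled day 6 over day 2, against 6.32% of all genes. It was ABCE1, at 0.474 times (0.437 to 0.515). Of 10 measured genes of mTORC1 signalling, 1 was at least 2-fold higher for labelled day 2 over day 0 (10.1% of all genes). For labelled day 6 over day 2, 1 of 10 was at most 0.5 times (6.32%). Both were DDIT4, which reached 10 CPM only through the library labelled day 2. AKT1S1, 1 of 9, was at least 2-fold higher for labelled day 6 over day 0 (9.94%). MTOR had 40.2, 40.9 and 66.9 CPM and RHEB had 172, 242 and 131 CPM in libraries labelled day 0, 2 and 6.

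**Figure D5:**
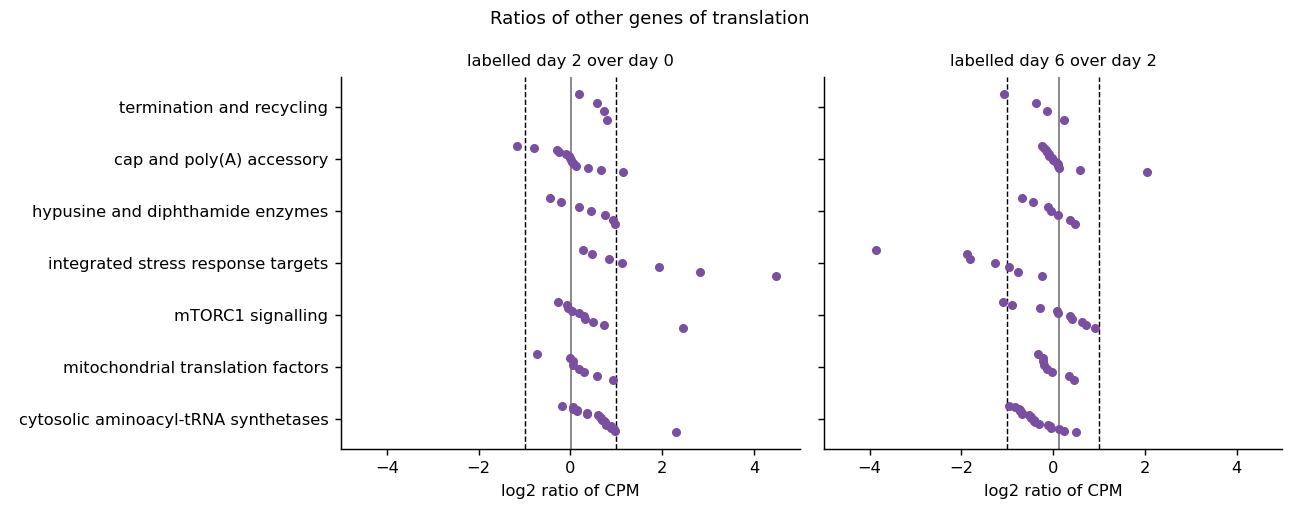
Log2 ratios of CPM of other genes of translation, 1 point a gene measured at 10 CPM or more in at least 1 of the 2 libraries, by list (rows), for labelled day 2 over day 0 (left) and labelled day 6 over day 2 (right). The grey line is the median of all genes and dashed lines mark 2-fold. Targets of the integrated stress response reach past 2-fold on the right in the left panel (4 of 7) and on the left in the right panel (4 of 7). CHAC1 and DDIT3, among the 4 in each panel, reached 10 CPM only through the library labelled day 2.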

How the data were processed

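For each library the files deposited by the authors hold whole counts of each gene symbol in each barcode; the submitters' processing notes name STAR and hg38. The counts were taken as UMIs because the method, per the labels' protocols, uses them; the sources used here do not state the annotation, strand setting, barcode filter or collapsing of duplicates. Each deposited barcode (11291, 12323 and 16073 labelled day 0, 2 and 6) had at least 100 genes. Cells were kept from 1000 UMIs and 500 genes upward and up to 25% mitochondrial UMIs, without doublet removal, and summed per library (28341741, 20626135 and 41268018 UMIs labelled day 0, 2 and 6).

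CPM is UMIs per 1000000 of these sums. Ratios carry exact conditional binomial intervals, levels exact Poisson intervals and shares Clopper-Pearson intervals, at 95%; they cover counting error only. A count of 0 allows up to 3 UMIs, or 0.106, 0.145 and 0.0727 CPM in the libraries labelled day 0, 2 and 6. Gene positions and exon overlaps come from GENCODE 29 (GRCh38), and start sequences from RefSeq (GRCh38.p14). Ratios were computed for genes with at least 10 CPM in 1 of the pair. The calculation was tested on simulated data. The cells were clustered on 2000 variable genes with scanpy 1.11.5. Alternatives were 10 settings chosen at the start and 2 added after seeing the data: cells under 5% mitochondrial UMIs alone, and the equally weighted mean of the 2 classes. TMM factors came from edgeR 4.0.16.

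Genes are named where they passed 2-fold in a comparison, were among the 6 highest or 6 lowest ratios by the bound nearest to 1, had the most UMIs of their group, or belong to a paralogue group; EEF1B2, EEF1D, EEF2K, EIF1AX, EIF2A, EIF2D, EIF2S1, EIF3C, EIF3L and EIF6 were named besides, for their role, sequence or low level. The genes and lists were chosen with earlier results of these data known.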

Additional observations from a re-analysis of the deposited data

How the results depend on the processing

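No paired analysis was possible because each label has 1 library, and for the same reason no replicate could be left out. What limits these results is that 1 library stands for each label and that cells differ in mitochondrial share and depth. Markers of pluripotency and of neural progenitors also go, for the most part, against the labels. Genes of a few CPM are limited by counting. Of 144 recomputed counts of factor genes, 117 stayed within 1.5 times. The shares of all genes past each fold under these settings are not given here, so changes in these counts cannot be set against them. In the other 27 the cause was not tested, except that a changed minimum alters which genes enter. For labelled day 2 over day 0, the 3 genes at least 2-fold higher became 6 with cells of at most 10% mitochondrial UMIs, 6 with CPM averaged over cells, 6 with no minimum level, and 1 with cells of at least 5%, with TMM factors and with median-of-ratios factors. The 14 genes at least 1.5-fold higher became 8 in cells under 5%. The 1 gene at most 0.5 times became 2 in cells of at most 10% and 0 at a minimum of 50 CPM, and the 2 genes lower by 1.5-fold or more became 4 in cells of at most 10%, 5 in cells under 5% and 0 at 50 CPM. For labelled day 6 over day 2, the 0 genes at least 2-fold higher became 1 in cells of at most 10%, and the 3 genes at most 0.5 times became 6 with no minimum. The 1 gene at least 1.5-fold higher became 4 in cells of at most 10%, 5 in cells under 5%, 2 in cells of at least 5%, 2 with either scaling, 2 with no minimum, 3 with CPM averaged over cells and 3 with the mean of the 2 classes. For labelled day 6 over day 0, the 1 gene at least 2-fold higher became 0 in cells of at most 10%, 0 in cells under 5%, 0 with the mean of the 2 classes and 4 with no minimum, and the 5 genes lower by 1.5-fold or more became 3 with CPM averaged over cells. Of 350 recomputed ratios of 35 named results of at least 1.5-fold in either direction, 20 in 9 results fell under 1.5-fold and 1 reversed: the log2 ratio of EIF2AK3 for labelled day 2 over day 0 was 0.74 in all kept cells and -0.019 in cells of at most 10%. The share of factor genes highest in the library labelled day 2 ranged over the alternatives between 50.9% and 65.9%, and that of all genes between 26.3% and 36.3%. No scaling moved the median log2 ratio of all genes by over 0.1.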
